A study of Mus musculus with 6 samples.

Results

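The 8 genes described here encode collagen VI chains and fibril-associated collagens of the muscle interstitium: Col6a1, Col6a2, Col6a3, Col6a6, Col12a1, Col14a1, Col15a1 and Col16a1. They were chosen by symbol, through the GENCODE M21 annotation of the table's gene identifiers. All 8 were among the 54393 genes listed and among the 16031 that were tested because their mean reached 10 normalized counts. The RNA came from tibialis anterior, a mostly fast-fibre muscle of the shin, taken from adult mice. The study had 3 WT (wild-type) samples, titled C57, and 3 samples labelled Dock3 KO, a knockout of Dock3, which encodes an activator of the small GTPase Rac. The labels give no allele, no sex and no exact age, and they do not say whether the 3 muscles of a group came from separate mice, so p-values measure the spread between these muscles. The comparison asks which transcripts differ in adult muscle that lacks Dock3. Values of single muscles stand in a fixed order, WT replicates 1, 3 and 4 before Dock3 KO replicates 1, 2 and 3, the numbers of the sample titles.

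Collagen VI is a microfilament of the matrix around muscle fibres. Its α1, α2 and α3 chains join in a heterotrimer inside the cell, and trimers assemble into tetramers that are secreted and form beaded filaments. The α6 chain, from Col6a6, resembles α3 and can stand in its place. Fibroblasts of the interstitium, not muscle fibres, make most collagen VI in muscle, and mutations of COL6A1, COL6A2 or COL6A3 cause Ullrich muscular dystrophy and Bethlem myopathy. FACITs, the fibril-associated collagens with interrupted triple helices, do not form fibrils of their own. Collagens XII and XIV bind along collagen I fibrils in tendon and perimysium, and collagen XVI lies close to fibrils or microfilaments. Collagen XV is a multiplexin, a proteoglycan with an interrupted helix that links basement membranes of fibres and capillaries to the matrix.

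The start regions of the chains of the collagen VI trimer, and of Col15a1, are shown because Col6a3 and Col15a1 carried the changes that passed the test and because all 3 chains of the trimer were higher in every Dock3 KO muscle. RefSeq (GRCm38.p6) gives a window of 300 bases, from 250 before to 50 after the start site, for 6 of the 8 genes. Capitals mark matches, on either strand and with overlaps counted, to TATAAA (the TATA box), CCAAT (the CCAAT box), GGGCGG (a GC box bound by Sp1), TGACTCA (an AP-1 site) or CCTCCC (a C-rich repeat), motifs chosen after the sequences were seen.
Col6a1 (chr10:76725995-76726294, minus strand): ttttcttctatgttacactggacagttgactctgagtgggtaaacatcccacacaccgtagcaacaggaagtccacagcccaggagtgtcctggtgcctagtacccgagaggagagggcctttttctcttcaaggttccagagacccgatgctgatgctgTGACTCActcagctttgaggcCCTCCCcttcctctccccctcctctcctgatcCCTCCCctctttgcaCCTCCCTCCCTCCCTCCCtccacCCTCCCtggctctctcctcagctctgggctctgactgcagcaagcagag
Col6a2 (chr10:76623355-76623654, minus strand): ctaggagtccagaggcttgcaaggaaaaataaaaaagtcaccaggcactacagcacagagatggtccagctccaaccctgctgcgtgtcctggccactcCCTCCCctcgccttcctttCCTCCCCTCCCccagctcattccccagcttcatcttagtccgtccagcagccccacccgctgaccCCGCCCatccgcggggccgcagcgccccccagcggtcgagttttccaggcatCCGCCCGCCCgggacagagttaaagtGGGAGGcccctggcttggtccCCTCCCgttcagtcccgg
Col6a3 (chr1:90843922-90844221, minus strand): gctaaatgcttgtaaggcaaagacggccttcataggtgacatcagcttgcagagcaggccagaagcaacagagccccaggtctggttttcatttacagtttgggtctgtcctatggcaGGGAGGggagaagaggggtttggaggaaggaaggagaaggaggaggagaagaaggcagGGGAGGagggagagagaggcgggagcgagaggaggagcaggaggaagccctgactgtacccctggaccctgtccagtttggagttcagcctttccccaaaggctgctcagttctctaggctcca
Col15a1 (chr4:47207762-47208061, plus strand): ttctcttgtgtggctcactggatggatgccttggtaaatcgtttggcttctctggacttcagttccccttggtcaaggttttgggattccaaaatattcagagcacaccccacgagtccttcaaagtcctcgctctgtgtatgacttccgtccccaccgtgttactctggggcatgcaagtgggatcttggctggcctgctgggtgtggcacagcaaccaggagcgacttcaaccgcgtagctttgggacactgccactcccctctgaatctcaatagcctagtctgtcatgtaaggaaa
RefSeq starts lie 124, 226, 0 and 149 bases from the GENCODE gene starts of Col6a1, Col6a2, Col6a3 and Col15a1, and Col6a2 has a further RefSeq window at the GENCODE start, not shown. None of these 4 windows held TATAAA, found in 13.6% of the 32851 windows of that length, or CCAAT, found in 37.4%. The Col6a1 window held 7 CCTCCC matches and 1 TGACTCA match, which begins at position -90 from the start site. Col6a2 held 5 CCTCCC and 3 GGGCGG matches, and Col6a3 held 2 CCTCCC matches. The Col6a2 window not shown held 1 CCTCCC and 1 GGGCGG match. At least 1 CCTCCC match was found in 42.4% of all windows, GGGCGG in 35.7% and TGACTCA in 5.20%. These shares give no background for several matches in a window. In the Col15a1 window none of the 5 motifs was found. A match is a description of the letters, and the expression table holds no data on binding.

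The normalized counts of a sample summed to between 23520200 and 33393900. Dock3 itself read 169, 161 and 118 normalized counts in WT, and the muscles labelled Dock3 KO read 22.4, 1.78 and 1.54, so each library stood on the side of its label. All 12 skeletal muscle fibre markers were present, the lowest at a mean of 12019. A pair of abundant transcripts, Gm42418 and Lars2, made up 3.00% to 3.64% of 4 libraries but 17.9% and 20.3% of Dock3 KO replicates 1 and 2. The 2 libraries with high shares are both Dock3 KO. In bulk tissue, fewer or more cells of a type and less or more RNA per cell cannot be told apart.

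Of the 8 genes, 2 passed the test, Col6a3 and Col15a1, both higher in Dock3 KO (limma, Benjamini-Hochberg adjusted p under 0.05 over all genes tested). Of all genes tested, 0.443% were called higher by the same rule and 0.586% lower. At an unadjusted limma p under 0.05, 7 of the 8 were higher, against 4.82% of all genes. In 7 of the 8, all but Col14a1, every Dock3 KO value lay above every WT value, against 7.60% of all genes tested (8.65% were lower without overlap). All 8 differences were above 0, with a median log2 difference of 0.64, against -0.01 over all genes tested and 49.0% above 0. Every log2 difference here is Dock3 KO minus WT on the scale log2(normalized count + 1).

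**Figure D1:**
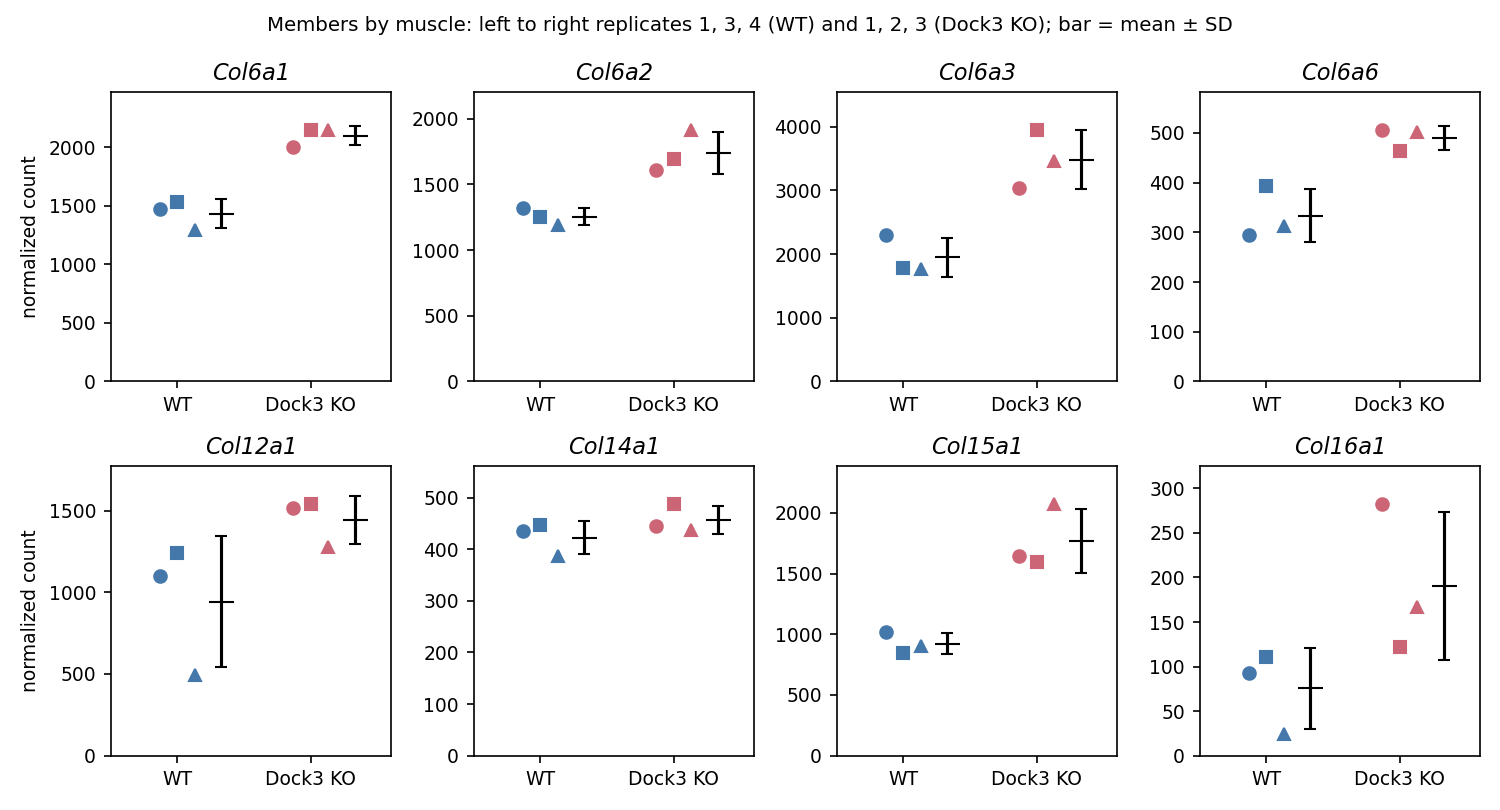
Normalized counts (vertical axes, starting at 0) of the 8 genes in each muscle, WT in blue and Dock3 KO in red, with the mean ± SD of 3 muscles beside the points. Only Col14a1 has overlapping groups, and WT replicate 4, the right-hand blue point, is far below the other WT muscles for Col12a1 (492 against 1097 and 1242) and Col16a1.

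These counts depend on how the libraries are scaled. When each library was rescaled to the same total, the median of all genes moved to -0.28, since the 2 Dock3 KO libraries rich in Gm42418 and Lars2 have the largest sums. Then 7 of the 8 differences were above 0 (Col14a1 stood at -0.16, not past the threshold), 1 gene, Col15a1, had groups that did not overlap, against 1.77% of all genes. None passed the test, against 0.256% of all genes called higher, and 3 had an unadjusted limma p under 0.05, against 1.42%. Rescaled after leaving out Gm42418 and Lars2, the median of all genes was -0.11, 8 differences were above 0, 5 genes did not overlap, against 4.06% of all genes. None passed, against 0.324% of all genes, and 6 had an unadjusted limma p under 0.05, against 2.78%.

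Among the chains of the trimer, Col6a1 (ENSMUSG00000001119, chromosome 10, 76708792 to 76726168, minus strand, GRCm38) encodes α1. The WT muscles held 1476, 1530.5 and 1296 normalized counts, the Dock3 KO muscles 2004, 2149.7 and 2143. The groups did not overlap, and the muscles within each lay close together. The means were 1434 ± 123 and 2099 ± 82.4 (SD, n = 3 each), a ratio of 1.46. The log2 difference of 0.55 (95% interval 0.28 to 0.82) missed the threshold, with a limma adjusted p of 0.0839, and was 0.28 when rescaled to the same total.

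Col6a2 (ENSMUSG00000020241, chromosome 10, 76595762 to 76623630, minus strand) lies next to Col6a1 in the same direction and encodes α2. Normalized counts were 1319.7, 1255 and 1188 for WT, then 1612, 1691 and 1916 for Dock3 KO. Here too the groups did not overlap, and replicate 3 was the highest Dock3 KO muscle. The WT mean was 1254 ± 65.9 and the Dock3 KO mean 1739.7 ± 158 (SD, n = 3 each), 1.39 times as high. With a log2 difference of 0.47 (95% interval 0.19 to 0.75), its limma adjusted p was 0.163, and the difference was 0.19 when rescaled to the same total.

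Col6a3 (ENSMUSG00000048126, chromosome 1, 90765923 to 90843971, minus strand) encodes α3, the longest chain of the trimer, and rose in Dock3 KO. Its normalized counts were 2299.7, 1782 and 1764 among WT muscles, against 3034, 3953 and 3458 among Dock3 KO muscles. Each Dock3 KO muscle was above each WT muscle, with WT replicate 1 the highest of its group and Dock3 KO replicate 2 the highest of all. From 1949 ± 304 the mean rose to 3482 ± 460.1 (SD, n = 3 each), a ratio of 1.79. On the log2 scale that is 0.84 (standard error 0.152, 95% interval 0.50 to 1.18, limma adjusted p 0.0328). The annotated gene Gm36970 overlaps it on the same strand, with 0.825 to 10.9 normalized counts over the 6 muscles. The limma adjusted p of Col6a3 was 0.152 without WT replicate 3, 0.143 without WT replicate 4, 0.146 without Dock3 KO replicate 2 and 0.110 without Dock3 KO replicate 3. It was 0.214 and 0.0898 with the 2 rescalings, 0.203 with a prior variance that does not follow expression, 0.451 with log2 Gm42418 as a covariate and 0.347 with Dock3 KO replicate 3 alone against WT, and the difference was between 0.56 and 0.96 in all 18 alternatives.

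The α3-like chain gene Col6a6 (ENSMUSG00000043719, chromosome 9, 105687809 to 105828160, minus strand) was the lowest of the collagen VI members. Its WT values were 294, 394 and 312 normalized counts and its Dock3 KO values 506, 463 and 501. WT replicate 3 came nearest to the Dock3 KO muscles, without overlap. Its ratio of means was 1.47 and its log2 difference 0.57 (95% interval 0.21 to 0.92, limma adjusted p 0.196), or 0.29 when rescaled to the same total. Col6a6 shares 1 stretch of 572 bases at 96.9% identity with Col6a5, the neighbouring α5 chain gene, so reads from there could be assigned to either. Col6a5 itself ran from 13.9 to 18.8 in WT and 10.7 to 43.7 in Dock3 KO, and Col6a4, for α4, at 0 to 2.76 normalized counts in all 6 muscles, under the filter.

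Because Col6a1, Col6a2 and Col6a3 products meet in 1 trimer, their ratio was compared within each muscle, where the scaling of a library nearly cancels (a pseudocount of 1 was added). The log2 ratio of Col6a3 to the mean of Col6a1 and Col6a2 was 0.72, 0.36 and 0.51 in the WT muscles and 0.76, 1.05 and 0.77 in the Dock3 KO muscles. The groups did not overlap, although WT replicate 1 and Dock3 KO replicate 1 differed by less than the spread within either genotype. The mean ratio was higher in Dock3 KO by 0.33 on the log2 scale, or 1.26-fold. By exact permutation (two-sided) p was 0.1, the smallest that 3 against 3 muscles allow, so 0.05 could not be reached.

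**Figure D2:**
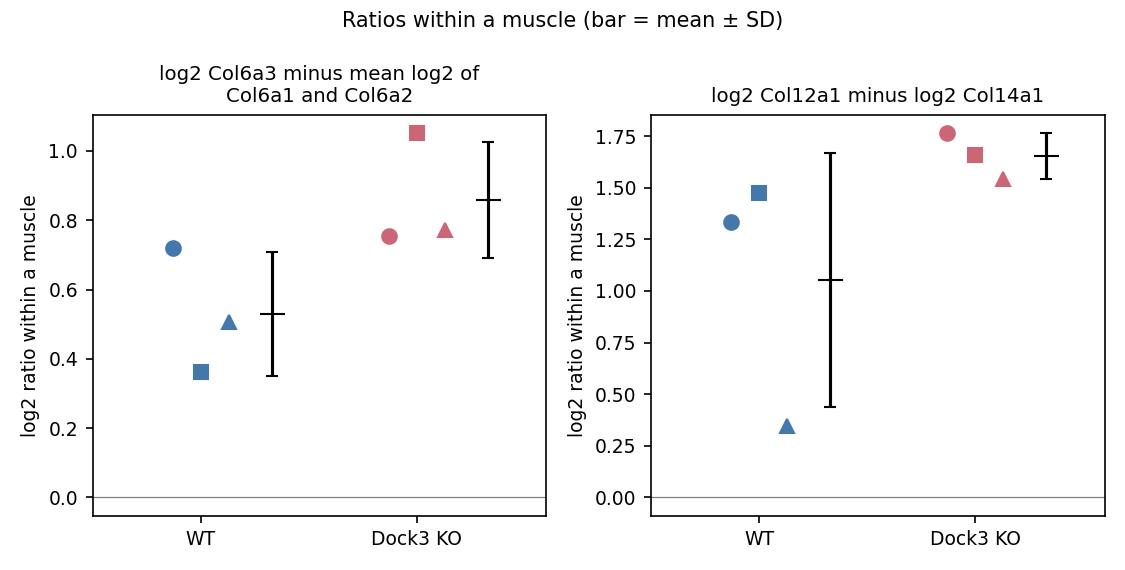
Log2 ratio of normalized counts within a muscle (vertical axes) for Col6a3 against the mean of Col6a1 and Col6a2 (left) and Col12a1 against Col14a1 (right), WT in blue and Dock3 KO in red, with the mean ± SD of 3 muscles. On the left the highest WT muscle (0.72) lies just under the lowest Dock3 KO muscle (0.76), and on the right WT replicate 4 (0.35) lies far below all other muscles.

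Col15a1 (ENSMUSG00000028339, chromosome 4, 47208161 to 47313167, plus strand), for the basement membrane zone collagen XV, rose with the smallest adjusted p of the 8. WT muscles had 1021, 847 and 900.4 normalized counts, and Dock3 KO muscles had 1644, 1591 and 2072. All Dock3 KO muscles were well above the WT range, replicate 3 the highest. The mean went from 923 ± 89.0 to 1769 ± 264 (SD, n = 3 each), a ratio of 1.92. The log2 difference was 0.93 (standard error 0.146, 95% interval 0.61 to 1.26, limma adjusted p 0.0134). The call was lost without WT replicate 3 (limma adjusted p 0.0811), WT replicate 4 (0.0739) or Dock3 KO replicate 3 (0.0517). It was also lost with the 2 rescalings (0.195 and 0.0540), the prior variance that does not follow expression (0.130), the Gm42418 covariate (0.0618) and Dock3 KO replicate 3 alone (0.0950), while the difference lay between 0.66 and 1.19 in all 18 alternatives.

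Col12a1 and Col16a1 varied more between muscles. Col12a1 (ENSMUSG00000032332, chromosome 9, 79598991 to 79718831, minus strand) encodes collagen XII. Normalized counts read 1097, 1242 and 492 for the WT muscles, against 1513, 1540.5 and 1276 for Dock3 KO. WT replicate 4 was low, and the other WT muscles came close to the lowest Dock3 KO muscle. Means were 944 ± 398 and 1443 ± 146 (SD, n = 3 each), and the log2 difference of 0.72 (95% interval 0.06 to 1.38) had a limma adjusted p of 0.425. Without WT replicate 4 the difference was 0.30 (limma adjusted p 0.651), and rescaled to the same total it was 0.44.

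Col14a1 (ENSMUSG00000022371, chromosome 15, 55307750 to 55520803, plus strand), for collagen XIV, overlapped between genotypes. Its normalized counts were 434, 446 and 387 for WT, with 445, 488 and 437 for Dock3 KO. Replicate 2 alone of the Dock3 KO muscles was above the WT range. The log2 difference was 0.11 (limma adjusted p 0.863), with a 95% interval from -0.20 to 0.43. Within a muscle, the log2 ratio of Col12a1 to Col14a1 was 1.33, 1.48 and 0.35 for WT and 1.76, 1.66 and 1.54 for Dock3 KO muscles. It was higher by 0.60 in Dock3 KO with no overlap (exact two-sided permutation p = 0.1, the smallest possible), and by 0.25 without WT replicate 4.

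Col16a1 (ENSMUSG00000040690, chromosome 4, 130047840 to 130099283, plus strand) had the lowest level and the widest spread. In WT its normalized counts were 92.5, 110.3 and 24.3, and the Dock3 KO muscles held 283, 122 and 167. Dock3 KO replicate 2 was barely above WT replicate 3, and WT replicate 4 was again low. The ratio of means was 2.52 and the log2 difference 1.49, with a 95% interval of 0.33 to 2.66 and a limma adjusted p of 0.318. Without WT replicate 4 the difference was 0.82 (limma adjusted p 0.528). Genes annotated on the opposite strand overlap Col6a6, Col12a1 and Col15a1 (1 each) and Col14a1 (3), and the use of strand in counting is not given in the sources used here, so reads of such partners cannot be told apart.

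Levels of different genes were compared per length, as normalized counts per kb of the longest protein-coding GENCODE transcript. Among WT muscles, Col6a1 was highest at 349.8 ± 30.0, before Col6a2 at 269.6 ± 14.2, Col6a3 at 193 ± 30.1 and Col15a1 at 178 ± 17.2 (SD, n = 3). Col12a1 followed at 82.0 ± 34.6, then Col14a1 at 65.4 ± 4.89, Col6a6 at 38.0 ± 6.09 and Col16a1 at 14.5 ± 8.72. Of the neighbours in this order, Col6a3 and Col15a1 overlapped in WT, as did Col12a1 and Col14a1, and the other 5 pairs did not. The order of the means was the same in Dock3 KO, where Col6a2 and Col6a3, Col6a3 and Col15a1, and Col6a6 and Col16a1 overlapped. Per kb, Col6a3 stood at 0.473 to 0.632 of Col6a1 in WT and at 0.614 to 0.746 in Dock3 KO, and Col6a2 at 0.723 to 0.808 and 0.693 to 0.788. With the merged length of all exons instead, Col6a2 came after Col6a3 in both genotypes, and after Col15a1 in Dock3 KO.

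**Figure D3:**
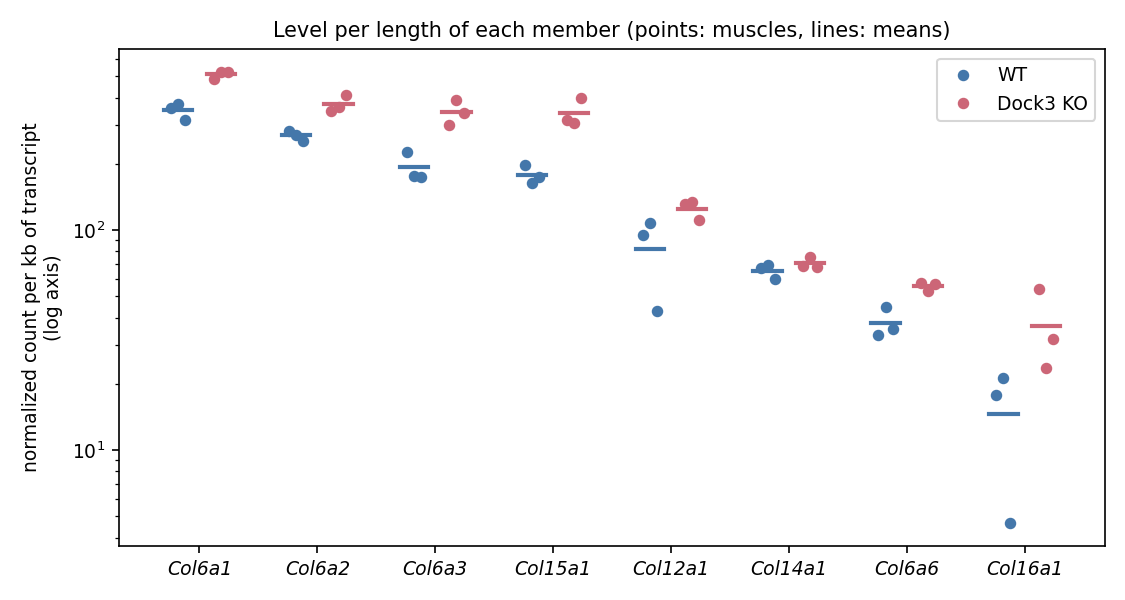
Normalized counts per kb of the longest protein-coding transcript (log axis) for each gene and muscle, WT in blue and Dock3 KO in red, points for muscles and lines for the means of 3. In WT, levels run from 349.8 for Col6a1 to 14.5 for Col16a1, and only Col14a1 has WT and Dock3 KO points that overlap.

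Markers of the cells that the muscles could hold were read beside these values. For WT replicate 4, which was lowest for Col12a1 and Col16a1, the summed tenocyte markers were also the lowest, at 6440 normalized counts against 12650.0 and 9854 in WT replicates 1 and 3. These sums were highest in Dock3 KO replicate 1, the muscle highest for Col16a1, at 17827, against 10247 and 9877 in replicates 2 and 3. The markers did not all follow this order. WT replicate 4 was the lowest WT muscle for 8 of the 9 markers and the lowest of all 6 muscles for 5, and Dock3 KO replicate 1 was the highest of all 6 for 6. WT replicate 4 was also the lowest of all 6 muscles for 6 of the 7 adipocyte markers. Of the tenocyte sum of 12650 in WT replicate 1, Fmod and Thbs4 held 5261 and 4690. None of the 9 tenocyte markers passed the test (limma, 1 higher at an unadjusted p under 0.05, against 772 of all 16031 genes). The part of tenocytes or adipocytes in the Col12a1 and Col16a1 values was not tested. Fibroblasts, the known main source of collagen VI, were read in the same way. The 14 fibroblast and fibro-adipogenic progenitor markers summed to 64140 to 72068 in WT and 59095 to 70240 in Dock3 KO, and 4 of 14 differences were above 0. None of the 14 passed (limma, 1 higher and 2 lower at an unadjusted p under 0.05, against 772 and 913 of all 16031 genes). Gsn and Dcn held 33532 and 17133 of the 64140 in WT replicate 1. The marker with the highest mean was Gsn, which severs actin, at a log2 difference of -0.06 (95% interval -0.38 to 0.26), and among tenocyte markers it was Fmod, a fibril-binding proteoglycan, at 0.53 (-0.13 to 1.18).

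Vessel wall and endothelial markers summed to 20960 to 26539 in WT and 23508 to 25372 in Dock3 KO, with 3 of 12 differences above 0, none past the test (limma, 0 at an unadjusted p under 0.05). Macrophage markers summed to 3661 to 3951 and 2907 to 3683, with 0 of 7 above 0. Summed adipocyte markers ranged from 2156 to 3569 in WT and 2575 to 3477 in Dock3 KO, and Schwann cell markers from 1547 to 2119 and 1692 to 2007. Fabp4 made up most of the adipocyte sum in every muscle. It held 3379 of the 3569 in WT replicate 4, the lowest muscle for the other 6 adipocyte markers. Red blood cell markers ran from 28542 to 54916 in WT and from 36950 to 97653 in Dock3 KO, highest in replicate 1. No gene of these 5 lists passed the test (limma, 2 adipocyte markers higher, 1 Schwann cell marker lower at an unadjusted p under 0.05). Of all 16031 genes, 772 were higher and 913 lower at that p. No marker was at 0 in all muscles, and the part of these cell types in the results was not tested. The highest markers of the lists stood at log2 differences of 0.35 for Rgs5 of pericytes and -0.38 for Csf1r of macrophages. Fabp4 of the adipocyte list stood at -0.04 and Pmp22 of Schwann cells at 0.03. The globin gene Hbb-bs was at 0.65 and the fibre gene Ttn at 0.10. Every 95% interval of these genes included 0.

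**Figure D4:**
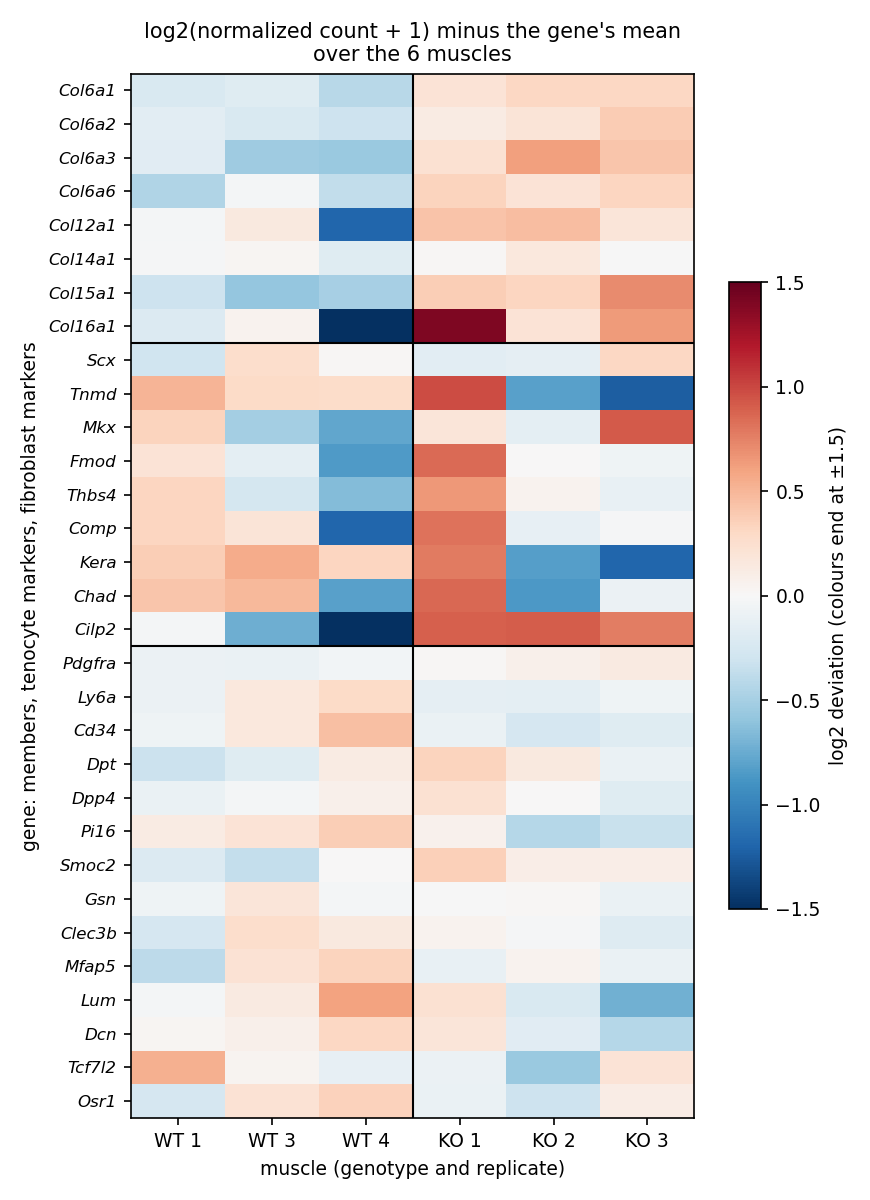
Log2(normalized count + 1) of each gene minus its mean over the 6 muscles (colour, red above and blue below, ends at ±1.5) for the 8 collagen genes, 9 tenocyte markers and 14 fibroblast markers, by muscle. Col12a1 and Col16a1 are dark blue in WT replicate 4. That muscle is lowest of the 6 for 5 of the 9 tenocyte markers and, not shown here, for 6 of the 7 adipocyte markers. Col6a1, Col6a2, Col6a3 and Col15a1 are blue in all WT and red in all Dock3 KO muscles.

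The other collagen genes give the frame for the 8. Fibrillar and basement membrane collagens had 3 of 17 genes called, all higher, against 0.443% of all genes called higher. Without overlap, 13 of the 17 were higher and 1 lower, against 7.60% and 8.65% of all genes tested. The list also held Col7a1, Col8a1, Col8a2 and Col10a1, which encode neither fibril-forming chains nor collagen IV. Of these, Col7a1 was the gene lower without overlap (log2 difference -1.69, limma adjusted p 0.162). The median log2 difference of the list was 0.69, or 0.41 when rescaled to the same total, where Col5a3 alone of the list passed. Col5a3, a minor chain of collagen V that helps start fibrils, rose from 399 ± 34.2 to 1185 ± 184 normalized counts (SD, n = 3 each). Its log2 difference was 1.56 (limma adjusted p 0.000769), and it passed in all 18 alternatives. Col3a1, the collagen III of reticular fibres, and Col1a1, the main fibril chain that FACITs coat, rose by 0.87 and 1.38 on the log2 scale (limma adjusted p 0.0168 and 0.0228). Among genes of this list that did not pass, Col1a2, the partner of Col1a1, stood at 0.88 (limma adjusted p 0.0537) and Col4a1, a basement membrane chain, at 0.52 (0.205). Col3a1 was not past the threshold without WT replicate 4 (limma adjusted p 0.0662) or Dock3 KO replicates 1, 2 or 3 (0.0552, 0.0814, 0.0517), nor Col1a1 without Dock3 KO replicates 1, 2 or 3 (0.0552, 0.104, 0.109). The 2 rescalings gave 0.178 and 0.0625 for Col3a1 and 0.0892 and 0.0578 for Col1a1 with limma. With Dock3 KO replicate 3 alone against WT the limma adjusted p was 0.395 for Col3a1 and 0.364 for Col1a1. Over all 18 alternatives, Col3a1 passed in 8 and Col1a1 in 10.

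Of the other FACIT, multiplexin and transmembrane collagens, 10 of 14 were tested and none passed (limma, 1 higher and 1 lower at an unadjusted p under 0.05, against 772 and 913 of all 16031 genes). The list also held Col26a1, Col27a1 and Col28a1, of which Col27a1 is a fibrillar collagen. Without overlap, 1 was higher and 2 lower, against 7.60% and 8.65% of all genes tested. The higher gene was Col23a1 (log2 difference 0.84), and the lower were the FACIT Col19a1 (-1.59) and Col27a1 (-0.49). The median log2 difference of the list was 0.10, and -0.14 when rescaled to the same total. The genes with the highest means were Col22a1, the FACIT of the myotendinous junction, at 0.36 (95% interval -0.32 to 1.04), and Col18a1, the other multiplexin and nearest relative of Col15a1, at -0.07 (-0.59 to 0.45). The Col18a1 interval ends below the lower bound of 0.61 for Col15a1. A test of that difference between the 2 genes was not run.

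**Figure D5:**
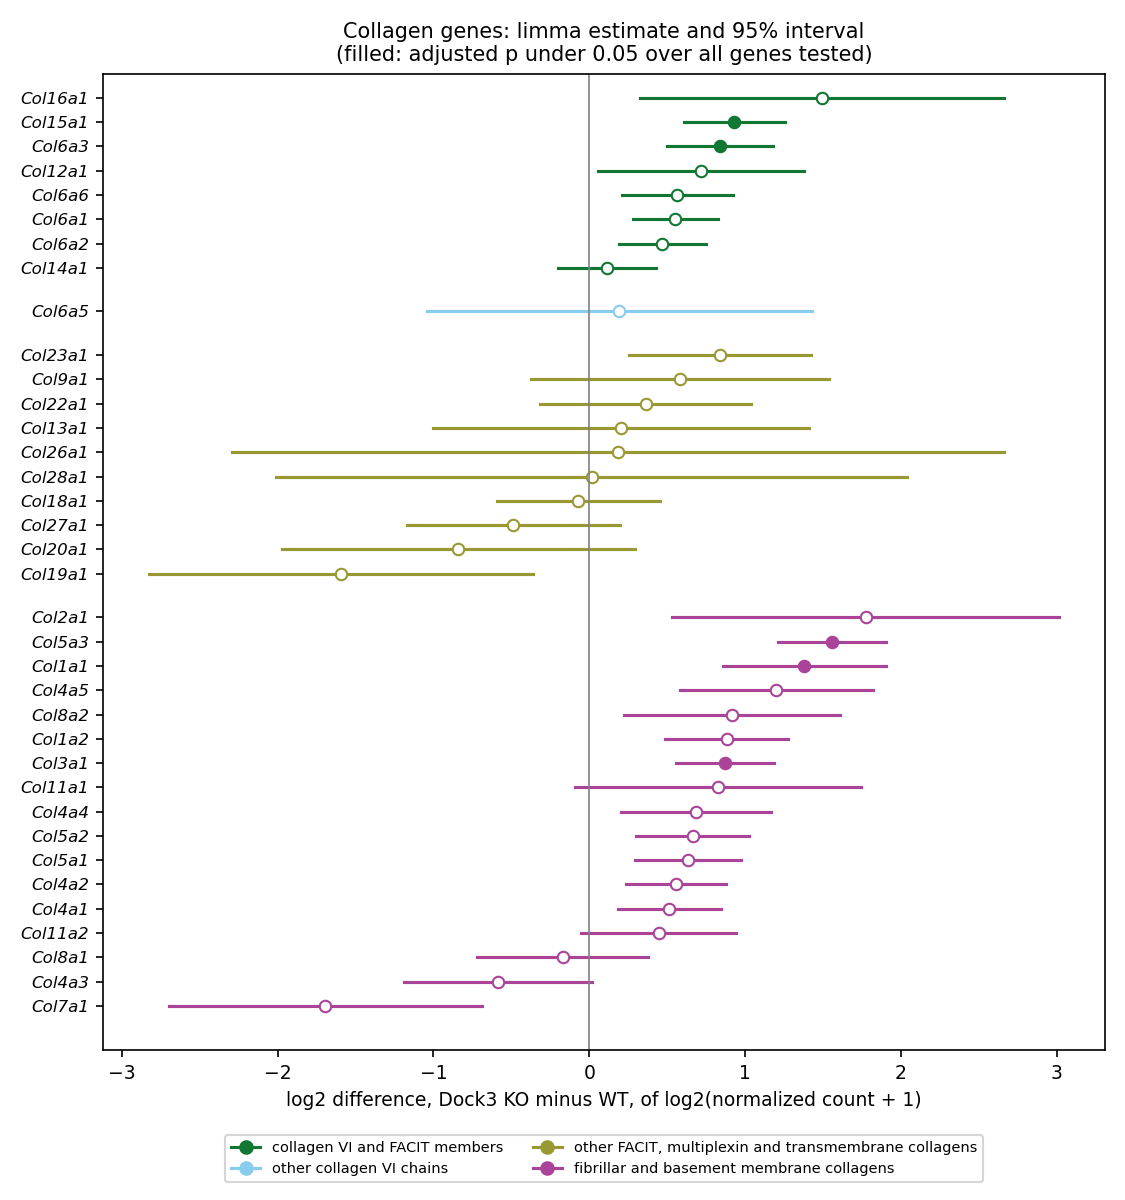
Log2 difference, Dock3 KO minus WT, of log2(normalized count + 1) with its 95% interval (horizontal axis) for the 36 collagen genes tested, in 4 groups, filled where the limma adjusted p over all genes is under 0.05. Filled points are Col15a1, Col6a3, Col5a3, Col1a1 and Col3a1, all to the right of 0.

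Collagen VI binds cells through NG2 (Cspg4), the ANTXR receptors and integrins, and FACITs and collagen VI meet decorin, tenascin X and other matrix proteins. Of 26 such partner and receptor genes, none passed (limma, 6 higher and 3 lower at an unadjusted p under 0.05, against 772 and 913 of all 16031 genes). Without overlap, 7 were higher and 3 lower, against 7.60% and 8.65% of all genes tested. The median log2 difference was 0.09, or -0.18 when rescaled to the same total. The partners with the highest means were Dcn, the fibril-binding proteoglycan decorin, at -0.28 (95% interval -0.66 to 0.11), and Tnxb, tenascin X, at 0.08 (-0.34 to 0.49). Itgb1, the shared β1 subunit of the collagen-binding integrins, was lower in all Dock3 KO muscles than in all WT muscles, with a log2 difference of -0.40 that missed the threshold (limma adjusted p 0.297). The integrin α subunit genes Itga7 (0.42) and Itga11 (0.29) were higher without overlap and Itga3 (-0.50) was lower, none past the threshold. These integrin genes and Cspg4, at -0.05 (95% interval -0.57 to 0.46), were named after their values were seen.

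Genes for folding, modifying and secreting collagen had 1 of 34 tested past the threshold, against 0.443% of all genes called higher. Loxl2, a lysyl oxidase that cross-links collagen, rose from 458 ± 73.1 to 963 ± 98.9 normalized counts (SD, n = 3 each). That is 1.08 on the log2 scale (limma adjusted p 0.00922). The median of the list was 0.10, or -0.17 when rescaled to the same total. Without overlap, 4 of the 34 genes were higher and 1 lower, against 7.60% and 8.65% of all genes tested. P4hb, a subunit of prolyl 4-hydroxylase, stood at 0.09 (95% interval -0.18 to 0.35) and Sec23a, a coat protein of secretory vesicles, at -0.19 (-0.51 to 0.12). The Loxl2 call was lost without WT replicate 3 (limma adjusted p 0.0561), WT replicate 4 (0.0580) or Dock3 KO replicate 2 (0.0614). It was also lost with rescaling to the same total (0.0793) and with Dock3 KO replicate 3 alone. The prior variance that does not follow expression and the Gm42418 covariate lost it too. The call held in 10 of 18 alternatives.

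Genes whose pattern was most like that of collagen VI were ranked by the root-mean-square difference, over the 6 muscles, between their centred log2 values and the mean centred profile of Col6a1, Col6a2 and Col6a3. Among 9986 genes whose mean reached 100 normalized counts, the nearest non-members were Rgcc (0.044), Fyco1 (0.065), Cdc40 (0.066), Adprm (0.075) and Pcdh18 (0.078). None of these 5 passed the test, with limma adjusted p-values from 0.0956 to 0.426. Of the other members, Col6a6 was at position 213 and Col15a1 at 291, while Col14a1 was at 1125, Col12a1 at 5201 and Col16a1 at 9792. The FACIT genes thus lay farther from the collagen VI profile than Col6a6 and Col15a1, a description of these 6 muscles. This distance counts the size of a change as well as its shape. Col14a1 (log2 difference 0.11), with overlapping groups, thus ranked before Col12a1 (0.72) and Col16a1 (1.49), which were higher in every Dock3 KO muscle.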

How the data were processed

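RNA of 3 WT and 3 Dock3 KO tibialis anterior muscles was depleted of ribosomal RNA and sequenced as stranded read pairs, per the labels' protocols. The authors deposited 1 table of normalized counts, used here as a signal per gene. FastQC, Trim Galore 0.4.5, Salmon 0.12.0, DESeq2 1.22.1 and R 3.5.3 and the builds mm10 and GRCm38 are named in the submitters' processing notes, without their roles. The annotation and the handling of reads that match several genes are not given in the sources used here. All 54393 identifiers were found in GENCODE M21 (GRCm38). Low values were not whole multiples of 1 read (16.4% to 24.6% within 0.01 of a multiple of the commonest low value), so reads per sample are not known and no counting interval is given.

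Genes with a mean of at least 10 were tested on log2(value + 1) with limma 3.58.1 in R 4.3.3 (trend in the prior variance, no covariates), with Benjamini-Hochberg adjustment over all genes and a threshold of 0.05. Ratios within a muscle were compared by exact permutation. The limma fit and its intervals, but not the other steps, were tested on simulated data with independent noise. Near-identical copies (at least 95% identity over 50% of the shorter transcript) were searched with blastn 2.17.0 and none was found for the 8 genes. The genes named are all 8, list genes past the threshold, up to 2 others a list by mean level, the highest marker of each marker list, Dock3, Gm42418, Lars2 and the 5 nearest patterns. A few other list genes were named after their values were seen. Alternatives were pseudocounts of 0.1 and 10, filters, rescalings, quantile normalization, other prior variances, a replicate block, a Gm42418 covariate and leaving out each muscle. The genes and lists were chosen with earlier results of these data known. Promoter sequences are from RefSeq, GRCm38.p6.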

Additional observations from a re-analysis of the deposited data

How the results depend on the processing

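The call for Col6a3 held in 8 of 18 alternatives and that for Col15a1 in 9. Both differences stayed above 0 in all 18, as did those of Col6a1, Col6a2, Col6a6, Col12a1 and Col16a1, none of which passed in any. Col14a1 turned to -0.16 when rescaled to the same total. None of the 8 genes passed with rescaling to the same total (3 higher at an unadjusted limma p under 0.05, against 1.42% of all genes), rescaling without Gm42418 and Lars2 (6, against 2.78%), a prior variance without trend (5, against 4.66%), log2 Gm42418 as a covariate (5, against 3.00%) or, chosen after seeing the data, Dock3 KO replicate 3 alone against WT (5, against 3.47%), where the lone muscle is assumed to vary like the others. In the same 5 settings, 1, 2, 1, 1 and 1 genes of the pathway lists passed, against 4. Over all genes, 165 passed, against 104 without trend, 57 with the covariate and 49 with Dock3 KO replicate 3 alone. Genes higher in Dock3 KO made up 71 of the 165, 41 of 177 when rescaled to the same total, 52 of 162 when rescaled without Gm42418 and Lars2, 34 of the 104 and 17 of the 57. With the replicate block, 127 genes passed in all, 0 of the 8 genes (5 at an unadjusted limma p under 0.05, against 3.62% of all genes) and 2 of the pathway lists. There the limma adjusted p was 0.308 for Col6a3 and 0.0839 for Col15a1. Same-numbered muscles share only a number (their deviations correlate at 0.065 and 0.0066). Leaving out 1 muscle gave 98 to 159 genes in all, 0 to 2 of the 8 genes (5 to 7 at an unadjusted limma p under 0.05, against 3.94% to 5.38% of all genes) and 1 to 4 of the pathway lists. With 1 muscle left out, the Dock3 KO minus WT difference of the Col6a3 log2 ratio ranged from 0.23 to 0.42. That of the Col12a1 to Col14a1 log2 ratio ranged from 0.25 to 0.81. Both of these differences kept their sign with pseudocounts of 0.1 and 10. No reads per gene are known, so the depth behind the low values of Col16a1 cannot be given. The cause of these moves was not tested.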
